A study of Mus musculus with 30 samples.

Results

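Mul1 and 9 genes that lie near it on mouse chromosome 4 were followed across the hippocampi of 30 mice. The genes are Mul1, Pink1, Nbl1, Rnf186, Ece1, Emc1, Rap1gap, Akr7a5, Hp1bp3 and Ddost, and every probe that the platform annotation assigns to them was taken. That gave 10 of the 16593 named genes and 16 probes of the 25697 on the array. Of these, 13 met the detection filter (detection p under 0.05 on at least 15 arrays), as did 12588 probes in all: 1 for Mul1 and 12 for the 9 neighbours. The values that chose the genes are the Mul1 signal itself, which falls into 2 levels, and the comparison of resistant with responder mice, in which a Mul1 and a Pink1 probe had been noticed. Those values are given here as a description.

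The mice were male NMRI, an outbred stock, adult at 12 weeks. Each had been phenotyped for its response to the antiseizure drug phenytoin with a 6 Hz stimulation protocol. One group was resistant to phenytoin (n = 15) and the other responded to it (n = 15), and nothing in the labels says that the groups differ in genotype or in drug exposure beyond that phenotyping. Total RNA of each mouse's hippocampus was read on 1 Illumina bead array, so that each replicate is 1 animal. All values below are log2 normalised signals, and differences are on that log2 scale.

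MUL1 is a ligase of the outer mitochondrial membrane that attaches ubiquitin or SUMO to its targets, among them the fusion protein MFN2 and the fission protein DRP1, which Dnm1l encodes. It acts in parallel with the pathway of PINK1, a kinase that accumulates on damaged mitochondria and recruits the ubiquitin ligase Parkin so that they are cleared. The other neighbours have unrelated roles. Ece1 encodes the protease that activates endothelin, Ddost a subunit of the enzyme that attaches N-linked glycans, and Hp1bp3 a chromatin protein related to linker histones. Rap1gap encodes an inactivator of the small GTPase Rap1, Nbl1 a secreted antagonist of bone morphogenetic proteins, and Rnf186 a ubiquitin ligase of the endoplasmic reticulum. Akr7a5 encodes an aldehyde reductase and Emc1 a subunit of the complex that inserts proteins into the endoplasmic reticulum membrane. In outbred mice, neighbouring genes are often inherited together on one haplotype, which is why the signals of genes near a gene with discrete levels are of interest.

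The 250 bases before the start of Mul1, and of the neighbours with the smallest p between Mul1 levels on either side of it, are shown because the comparisons below turn on these 3 genes. They are reference sequences from RefSeq (build GRCm38.p6), each read 5' to 3' on the gene's own strand, and are not the sequences of the mice studied. The Mul1 stretch is chr4:138434422-138434671 on the plus strand, that of Pink1 is chr4:138326297-138326546 on the minus strand, and that of Nbl1 is chr4:139092971-139093220 on the minus strand. Capitals mark matches, on either strand, to an E-box (CACGTG), to the core of the cyclic AMP response element (TGACGT, or ACGTCA on the other strand) and to a GC box (GGGCGG, or CCGCCC on the other strand); no 2 matches overlap.
Mul1: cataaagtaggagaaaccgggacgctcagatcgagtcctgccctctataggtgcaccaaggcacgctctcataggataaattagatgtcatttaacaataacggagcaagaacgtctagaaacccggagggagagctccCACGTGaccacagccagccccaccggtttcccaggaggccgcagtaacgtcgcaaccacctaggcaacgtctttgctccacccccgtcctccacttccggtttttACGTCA
Pink1: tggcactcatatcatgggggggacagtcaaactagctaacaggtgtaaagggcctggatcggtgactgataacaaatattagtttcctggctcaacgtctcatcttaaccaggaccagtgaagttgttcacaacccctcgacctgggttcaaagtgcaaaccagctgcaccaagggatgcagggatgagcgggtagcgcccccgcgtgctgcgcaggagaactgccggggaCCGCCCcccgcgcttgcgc
Nbl1: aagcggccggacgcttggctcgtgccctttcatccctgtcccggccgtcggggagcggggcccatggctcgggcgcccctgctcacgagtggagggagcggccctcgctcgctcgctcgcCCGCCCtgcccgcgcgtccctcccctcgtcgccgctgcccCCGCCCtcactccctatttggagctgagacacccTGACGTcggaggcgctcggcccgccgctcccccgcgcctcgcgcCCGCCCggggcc
Guanine and cytosine made up 54.4% of the Mul1 stretch, 57.2% of that of Pink1 and 77.6% of that of Nbl1, with 16, 13 and 36 CpG dinucleotides. The Mul1 stretch held 1 E-box and, at its end, 1 cyclic AMP response element core. The Pink1 stretch held 1 GC box, and the Nbl1 stretch held 3 GC boxes and 1 cyclic AMP response element core. Over the same window of 27025 genes, 6.0% held the E-box, 6.6% the cyclic AMP response element core and 32.9% the GC box. A match says only that these letters are present in the reference.

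The arrays were of similar quality. Each detected between 12330 and 13223 probes, and the deposited array medians ran from 7.06 to 7.38. Hippocampal neuron markers were read in these samples, with mean signals of 11.64 for Fibcd1, 10.81 for C1ql2, 9.97 for Wfs1, 8.42 for Neurod2 and 7.60 for Prox1. The array's probes for Neurod6, Pcp4, Tdo2, Calb1 and Grin2a missed the detection filter. Choroid plexus transcripts varied widely between mice: the mean of 10 markers ran from 5.36 to 10.59. Because whole tissue was measured, fewer cells of a type and less RNA per cell cannot be told apart.

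Mul1 was measured by 1 probe, ILMN_2653881, detected on 30 of 30 arrays. In resistant mice its signal was lowest at 6.61, had a median of 8.21 and was highest at 8.52. In responder mice the lowest value was 5.90, the median 6.81 and the highest 8.21. Means over the 15 mice of each group were 7.86 ± 0.71 (SD) for resistant and 6.89 ± 0.56 (SD) for responder animals, and the groups overlapped across most of the responder range. No mouse of either group lay between 7.00 and 7.96. That gap of 0.96 was the widest in the sorted values, against 0.66 for the next widest, which set the lowest mouse (responder replicate 5, at 5.90) apart from the next at 6.56. Within the high level no gap exceeded 0.15.

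The widest gap put 13 mice at a high Mul1 level, with a mean of 8.24 ± 0.16 (SD, 7.96 to 8.52), and 17 mice at a low level, with a mean of 6.71 ± 0.26 (SD, 5.90 to 7.00). The distance between these means was 1.53, or 2.90-fold. These levels were defined from the Mul1 signal, are not groups of the study, and Mul1 itself was not tested between them. At the high level were 11 of 15 resistant mice and 2 of 15 responder mice. At the low level were 4 resistant mice, at 6.61, 6.66, 6.70 and 7.00, and 13 responder mice. The high responder mice read 8.21 (replicate 1) and 7.99 (replicate 6). The mice nearest the gap were resistant replicate 5 at 7.96 and responder replicate 6 at 7.99 above it, and resistant replicate 3 at 7.00 and a responder mouse at 6.98 below it.

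**Figure D1:**
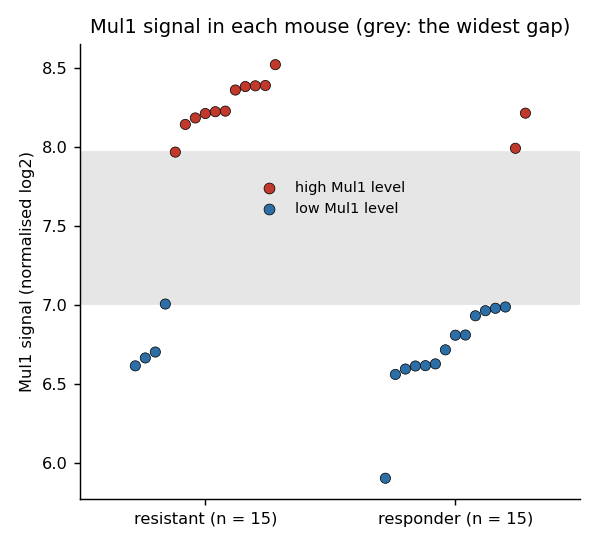
Mul1 signal (normalised log2, vertical axis) of every mouse, resistant on the left and responder on the right, with each point 1 mouse in order of its value. The grey band is the gap between 7.00 and 7.96, with 11 resistant and 2 responder mice above it.

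Within a level, the groups had close Mul1 signals. High resistant mice averaged 8.27 ± 0.15 (SD, n = 11) and high responder mice read 8.21 and 7.99. Low resistant mice averaged 6.74 ± 0.18 (SD, n = 4) and low responder mice 6.70 ± 0.29 (SD, n = 13). The difference of 0.98 between resistant and responder mice was 0.09 with the level, which was cut from this same signal, in the model. The mice fell into the same levels, 30 of 30, without background correction, with median scaling and in the deposited signals before normalisation. In these the gap was 0.46 to 0.90 wide. The authors' processed values are the same as those without background correction. The labels give a running sample number across both groups and no batch. Among numbers 1 to 16, 5 of 8 resistant and 2 of 8 responder mice were high, and among numbers 17 to 30, 6 of 7 resistant and 0 of 7 responder mice were.

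Between Mul1 levels, with group in the model, no neighbour passed the 5% false discovery threshold, and no probe of the 12587 tested did. Adjusted p was 0.99997 for all neighbours (limma, Benjamini-Hochberg). At an unadjusted p under 0.05, 4 of the 12 neighbour probes were counted, from Ece1, Pink1, Rnf186 and Nbl1. Of all 12587 probes 407, or 3.23%, were counted. Ece1 and the brighter Pink1 probe read higher in mice with the high Mul1 level, as did 1.39% of all probes, and Rnf186 and Nbl1 read lower, as did 1.84%. The median size of the difference was 0.14 over the neighbour probes and 0.05 over all probes. The neighbours were chosen with results of these mice known, so this count describes them.

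Of the protein-coding genes that come before Mul1 on the chromosome, Pink1, the mitochondrial kinase, is the third. Its brighter probe, ILMN_1255556, ran from 10.50 through a median of 10.81 to 10.94 in high mice, and from 10.49 through 10.59 to 10.87 in low mice. The levels overlapped almost throughout, but 12 of 13 high mice exceeded the median of the low mice. Means were 10.78 ± 0.13 in the 13 high and 10.64 ± 0.13 in the 17 low mice (SD). With group in the model the difference was 0.15 (SE 0.06, 95% interval 0.03 to 0.27, limma p = 0.013, unadjusted). Here and for the genes below, ranges, means and counts over all high or low mice pool both groups. Most high mice were resistant and most low mice responders, so these also carry any group difference. In resistant mice the 4 at the low level read 10.52, 10.64, 10.64 and 10.56, and those at the high level had a median of 10.83. There 10 of 11 high mice exceeded the low median, and the difference was 0.20 (limma p = 0.0131, unadjusted). In responder mice the high ones read 10.71 and 10.76 against a low median of 10.59, a difference of 0.09 (limma p = 0.386, unadjusted).

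The second Pink1 probe, ILMN_2616573, was dimmer and gave another pattern. It averaged 7.96 ± 0.12 in high and 8.10 ± 0.22 in low mice (SD), and none of the 13 high mice exceeded the low median of 8.13. With group in the model the level difference was -0.0031 (SE 0.08, 95% interval -0.16 to 0.15). It was 0.09 within resistant and -0.16 within responder mice. The difference between the probes of this gene was not tested, the group difference of the dim one was among the values that chose the genes, and which transcripts each reads was not examined here.

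Ece1, the endothelin-converting protease, is the ninth gene before Mul1. Probe ILMN_2745993 ran from 7.78 through 8.04 to 8.36 in high mice, and from 7.54 through 7.84 to 8.08 in low mice. Again 12 of 13 high mice exceeded the low median, with ranges that overlapped. The difference was 0.17 (SE 0.07, 95% interval 0.03 to 0.31, limma p = 0.0225, unadjusted). It was 0.13 within resistant mice (limma p = 0.161) and 0.24 within responder mice (limma p = 0.0503), where the high mice read 7.84 and 8.21 against a low median of 7.78. The second Ece1 probe, ILMN_1255063, was detected on 9 arrays and was left out of the tests.

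Ddost, the glycan-transferase subunit, is the fourth gene before Mul1 and its differences had opposite signs in the groups. In resistant mice the high level ran from 9.35 through 9.75 to 10.01, and the low mice read 9.70, 9.32, 9.21 and 9.47. There 10 of 11 high mice exceeded the low median of 9.39, and the difference was 0.28 (SE 0.12, limma p = 0.0249, unadjusted). In responder mice the high ones read 9.57 and 9.39, both below the low median of 9.67, a difference of -0.18 (limma p = 0.257). The difference between these differences was 0.45 (SE 0.19, limma p = 0.0252 unadjusted, adjusted p = 0.967 over all probes), so it did not pass the threshold. Over both groups Ddost differed by 0.11 (SE 0.10).

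The remaining genes before Mul1 showed little. Rap1gap, the Rap1 inactivator, had a mean of 6.54 ± 0.26 in high and 6.47 ± 0.25 in low mice (SD), a difference of 0.14 with group in the model (SE 0.12, limma p = 0.224). Hp1bp3 was the brightest neighbour and the most even, at 12.02 ± 0.11 in high and 11.99 ± 0.06 in low mice (SD), a difference of 0.05 (SE 0.04, limma p = 0.223). The 30 mice spanned 0.40 in Hp1bp3 and 2.62 in Mul1.

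On the other side of Mul1, Nbl1, the bone morphogenetic protein antagonist, had the smallest p of the neighbours. Probe ILMN_2886618 ran from 10.42 through 10.55 to 11.04 in high mice, and from 10.55 through 10.92 to 11.21 in low mice. The values overlapped, yet 1 of 13 high mice exceeded the low median. High mice averaged 10.59 ± 0.17 and low mice 10.87 ± 0.20 (SD). The difference was -0.26 (SE 0.08, 95% interval -0.44 to -0.09, limma p = 0.00369 unadjusted), or 0.832 times the low level, and it ranked as number 19 of the 12587 probes by p. Within resistant mice the high level had a median of 10.55, and the low mice read 10.57, 10.57, 10.92 and 11.21, a difference of -0.21 (limma p = 0.0546). Within responder mice the high ones read 10.64 and 10.42 against a low median of 10.93, a difference of -0.35 (limma p = 0.0177, unadjusted). Leaving out each of the 6 mice of the smaller cells (4 resistant at the low level, 2 responder at the high level) gave -0.32 to -0.20, with p from 0.000911 to 0.0276. Within sample numbers 1 to 16 the difference was -0.17 (limma p = 0.13) and within 17 to 30 it was -0.66. That last value has no p here, since it rests on 1 mouse, resistant replicate 9, the 1 resistant animal at the low level there, whose 11.21 was the highest Nbl1 value of all 30; no responder mouse was high.

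Rnf186, the ubiquitin ligase of the endoplasmic reticulum, was dim. Probe ILMN_2663996 ran from 5.52 through 6.22 to 6.76 in high mice, and from 5.87 through 6.39 to 6.79 in low mice, and 2 of 13 high mice exceeded the low median. The difference was -0.28 (SE 0.12, 95% interval -0.53 to -0.03, limma p = 0.0277, unadjusted). It rested on the responder mice, where the high ones read 5.52 and 6.15 against a low median of 6.33, a difference of -0.52 (limma p = 0.0124), beside -0.14 in resistant mice (limma p = 0.359). Without responder replicate 1, whose 5.52 was the lowest Rnf186 value of all 30 mice, the difference was -0.15 (limma p = 0.224). The test between the groups' differences gave 0.38 (limma p = 0.135).

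Emc1, the membrane insertion subunit, was read above the filter by 1 of its 3 probes, ILMN_3158659. In responder mice the high ones read 6.16 and 6.05, and the 13 low mice ran from 6.28 through 6.58 to 6.91. The difference there rested on 2 high mice and was -0.50 (SE 0.18, limma p = 0.00912, unadjusted). In resistant mice the low ones read 6.65, 6.09, 6.42 and 6.43 within the high range of 5.78 to 6.81, a difference of 0.01. The groups' differences lay 0.51 apart (SE 0.23, limma p = 0.0314 unadjusted, adjusted p = 0.967). Over both groups the Emc1 difference was -0.18 (SE 0.12, limma p = 0.134). The other Emc1 probes, ILMN_1249433 and ILMN_2747721, were each detected on 8 arrays.

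Akr7a5, the aldehyde reductase, is the 1 neighbour with 3 probes above the filter, and all of them read lower at the high level. The differences were -0.07 for ILMN_1256518, -0.13 for ILMN_2625991 and -0.10 for ILMN_2908045, with limma p from 0.0966 to 0.145. The brightest, ILMN_1256518, averaged 10.97 ± 0.10 in high and 11.08 ± 0.09 in low mice (SD). For the 3 probes, 2, 3 and 2 of 13 high mice exceeded the low median. These means and counts pool both groups, whereas the differences have group in the model.

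**Figure D2:**
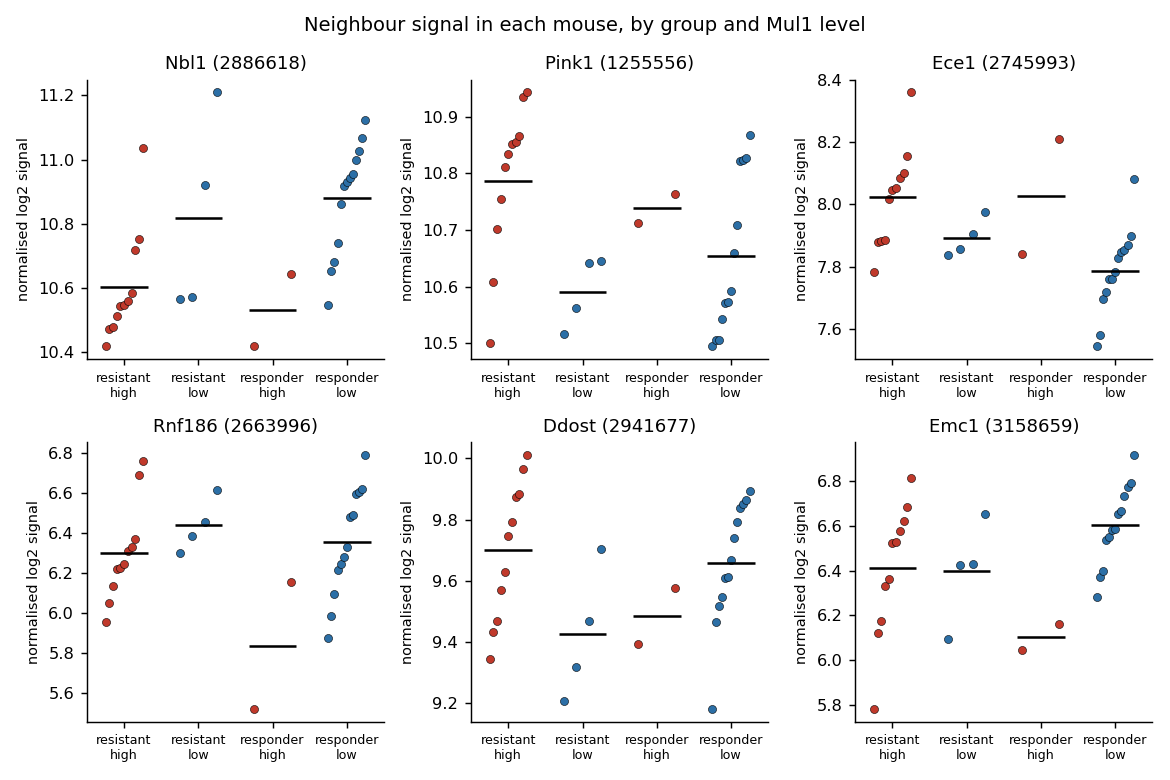
Normalised log2 signal (vertical axes) of 6 neighbour probes (Nbl1, the brighter Pink1 probe, Ece1, Rnf186, Ddost and Emc1) in each mouse, at the high and the low Mul1 level within resistant and within responder mice; each point is 1 mouse and each line a mean. Nbl1 lay mostly lower at the high level (medians 10.55 in high and 10.92 in low mice) and the brighter Pink1 probe mostly higher (medians 10.81 in high and 10.59 in low mice), with overlapping ranges.

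Read by group, the counts were smaller. Within resistant mice (11 high, 4 low) 2 of 12 neighbour probes had an unadjusted p under 0.05, Ddost and the brighter Pink1 probe, both higher. The share of all probes there was 2.87%, and 1.37% in the higher direction. Within responder mice (2 high, 13 low) it was 3 of 12, Rnf186, Nbl1 and Emc1, all lower, and the share of all probes was 4.7%, with 2.98% lower. No neighbour passed the 5% threshold in either group. The sign was the same in both groups for 9 of 12 neighbour probes and for 47.7% of all probes. The test of whether the level difference itself differs between the groups counted 2 of 12, Ddost and Emc1, both positive, beside 4.85% of all probes and 2.84% in that direction. With 2 responder mice at the high level the typical 95% interval of a neighbour reached 0.27 to either side of its value, against 0.21 within resistant mice and 0.17 over both groups. These widths describe the precision for a typical neighbour and are not a limit of detection, since the width differed between probes.

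**Figure D3:**
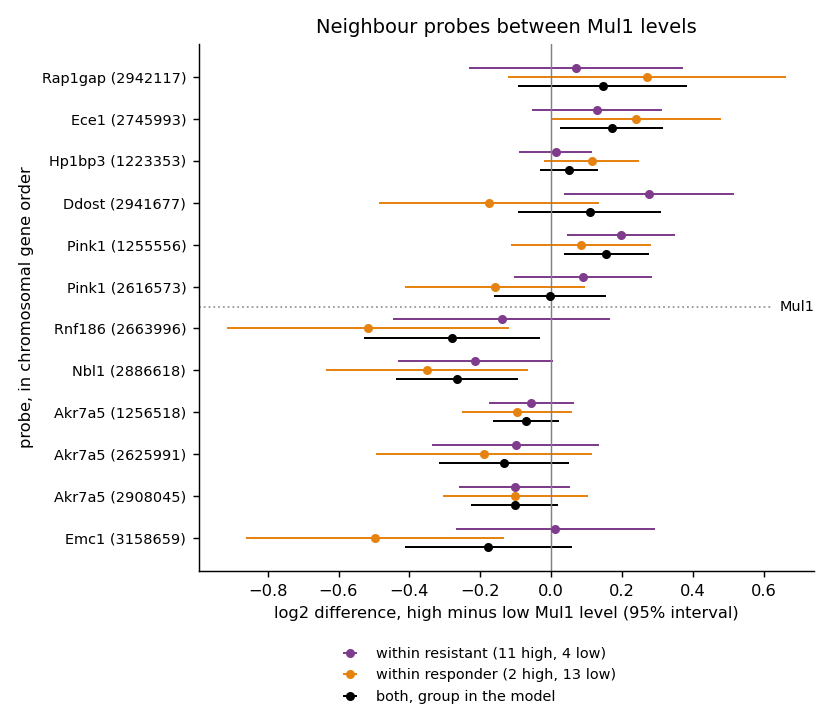
Difference between high and low Mul1 level (log2, horizontal axis) for each neighbour probe, over both groups and within resistant and within responder mice; points are limma estimates and bars their 95% intervals. Over both groups, the intervals of Ece1, the brighter Pink1 probe, Rnf186 and Nbl1 lie to one side of 0.

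By position, most member probes before Mul1 read higher at the high level and those after it lower, none past the threshold. Of the 6 probes (5 genes) before it, 5 were higher, and the 6 ran from -0.0031 to 0.17. All 6 after it (4 genes) were lower, from -0.28 to -0.07. Pink1 and Akr7a5 count here with each of their probes. Over all 12587 probes, 5969 were higher. The members were chosen with results of these mice known, and a pattern by position was not tested. Other genes in the same stretch read otherwise. Among genes that start within 2 Mb of Mul1 and are not members, 2 of 11 probes before Mul1 were higher, and 8 of 11 after it. Camk2n1, an inhibitor of calmodulin kinase and the nearest gene after Mul1, had a difference of -0.02 on a probe with a mean signal of 13.69. C1qb and C1qc, complement subunits made by microglia, lay at -0.24 (limma p = 0.0307, unadjusted) and -0.21 (limma p = 0.0205, unadjusted), and the third subunit gene, C1qa, at -0.11. These were the only non-member probes within 2 Mb with an unadjusted p under 0.05; they and Camk2n1 were picked after their values were seen.

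The members all start within 2 Mb of Mul1, among other genes, and are not a nearer class. Of the 12 neighbour probes 4 (33.3%) had an unadjusted p under 0.05 between levels. Of the 22 other probes (18 genes) within 2 Mb it was 2 (9.09%), C1qb and C1qc. Since the members were chosen with results of these mice known, these shares are not a like comparison. With members left out, the share within 10 Mb was 3.68% of 163 probes. It was 4.21% of 737 probes on the chromosome, members included, and 3.23% of all. No probe in any of these windows passed the 5% threshold. Between resistant and responder mice, 2 of the 22 other probes within 2 Mb (9.09%) had an unadjusted p under 0.05, beside 7.55% of all. Mrto4, a ribosome assembly factor 19 genes after Mul1, lay at 0.16 (limma p = 0.00129, unadjusted). The Wnt4 probe ILMN_2512663 lay at -0.18 (limma p = 0.0376, unadjusted). Between levels Mrto4 lay at 0.07 and this Wnt4 probe at -0.01. Both were picked after their values were seen.

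**Figure D4:**
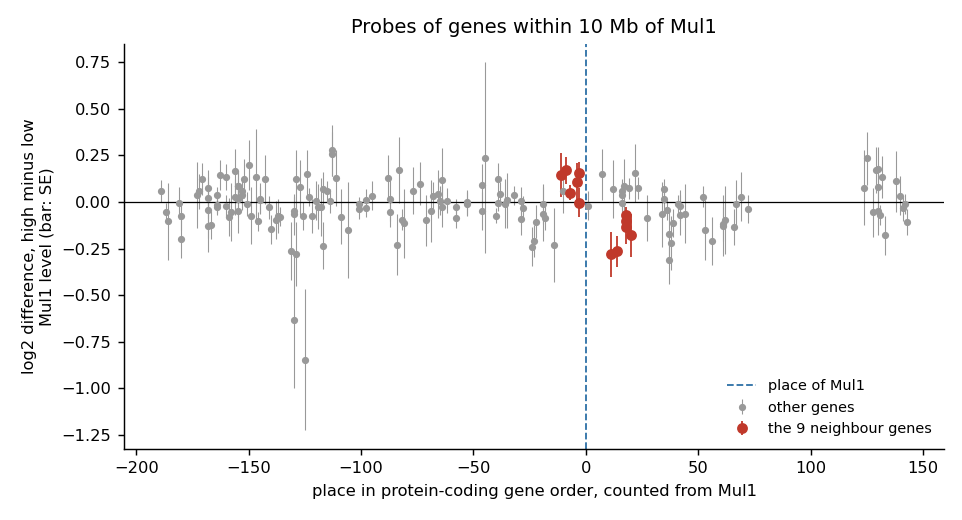
Difference between high and low Mul1 level (log2, vertical axis) for probes of genes within 10 Mb of Mul1, by place in protein-coding gene order from Mul1 (horizontal axis, negative before it); bars are SE. Neighbour probes, in red, run from -0.28 for Rnf186 to 0.17 for Ece1.

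The comparison the study names, resistant against responder mice, counted 4 of the 12 neighbour probes at an unadjusted p under 0.05, beside 7.55% of all 12588 probes. Since the neighbours were chosen with results of these mice known, that count is a description and the 2 shares are not a like comparison. Of those 4, 1 was higher and 3 lower, against 4.25% and 3.3% of all probes. None passed the 5% threshold, which 1 probe in all (0.00794%) did, with adjusted p of the neighbours from 0.31 to 0.993 (limma, Benjamini-Hochberg). Ece1 averaged 7.99 ± 0.15 for resistant and 7.82 ± 0.17 for responder mice (SD over the 15 animals of each), a difference of 0.17 (SE 0.06, limma p = 0.0078, unadjusted). Of the resistant mice, 14 lay above the median of the responders. Nbl1 averaged 10.66 ± 0.23 in resistant mice and 10.83 ± 0.21 in responders (SD), a difference of -0.17 (SE 0.08, limma p = 0.0263, unadjusted), with 3 of 15 resistant mice above the median of the responders. The Akr7a5 probe ILMN_1256518 read 10.98 ± 0.10 in resistant mice and 11.08 ± 0.10 in responders (SD), a difference of -0.11 (limma p = 0.0064, unadjusted). The dim Pink1 probe read 7.93 ± 0.18 in resistant mice and 8.15 ± 0.14 in responders (SD), a difference of -0.22. That probe was among those first noticed in this comparison. Its difference, its place among the 4 counted and the adjusted p of 0.31, which is its own, are therefore a description. When arrays were scaled to a common median instead, 3 neighbour probes were counted: Ece1 and the brighter Pink1 probe, higher, and the dim Pink1 probe, lower. Over all probes that scaling counted 924 higher and 229 lower, against 535 and 416 as normalised here, with a median difference of 0.03.

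Markers of other cell types were set beside this comparison, in which 6772 of the 12587 probes other than that of Mul1 read higher in resistant mice. All 10 choroid plexus markers read lower in resistant mice, with a median difference of -0.89, none at an unadjusted p under 0.05. As markers of 1 tissue these 10 are not independent observations. Their mean was 7.77 ± 1.49 in resistant mice (5.36 to 9.87) and 8.62 ± 1.89 in responders (SD, 5.86 to 10.59). Of 10 oligodendrocyte markers 9 read higher in resistant mice, with a median of 0.15, and 1 was counted, Ugt8a, an enzyme of myelin lipid synthesis, at 0.38 (limma p = 0.00072, unadjusted). Their mean was 10.83 ± 0.24 in resistant mice (10.55 to 11.44) and 10.68 ± 0.30 in responders (SD, 10.02 to 11.05). With the choroid plexus mean in the model, the group difference was 0.15 for Ece1, -0.18 for Nbl1, -0.10 for Akr7a5 probe ILMN_1256518 and -0.26 for the dim Pink1 probe. The part of oligodendrocyte transcripts was not tested.

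Since 11 of the 13 high mice were resistant, the group comparison and the Mul1 level are not independent. With the level in the model, 1 of 12 neighbour probes was counted, beside 6.67% of all probes and 2.99% in its direction, which was lower. It was the dim Pink1 probe, at -0.22 as before; since that probe was chosen on this comparison, the count is a description. The group difference of Nbl1 was -0.02 in that model (95% interval -0.19 to 0.16) and that of Ece1 0.07 (95% interval -0.08 to 0.21). For the brighter Pink1 probe it was -0.02, beside 0.07 without the level.

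**Figure D5:**
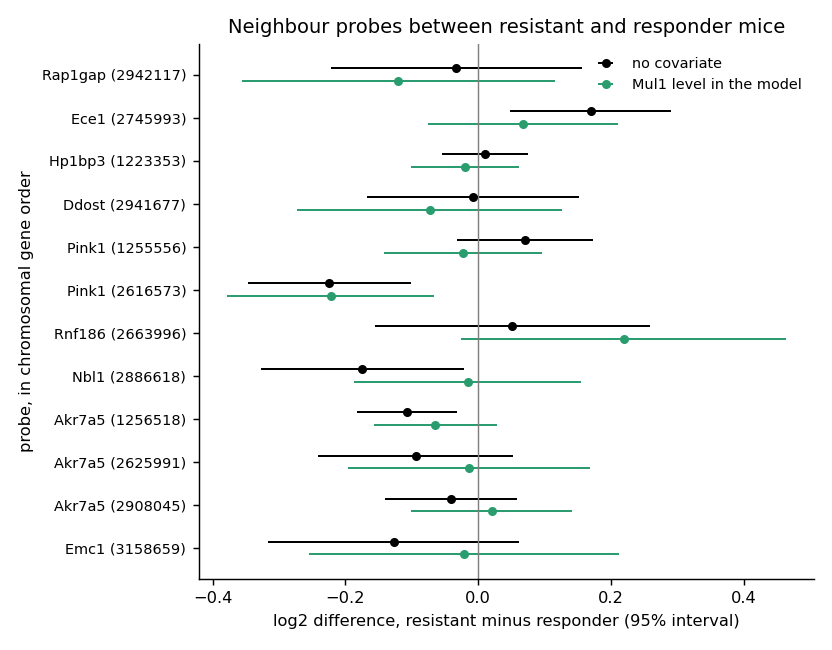
Difference between resistant and responder mice (log2, horizontal axis) for each neighbour probe, without and with the Mul1 level in the model; points are limma estimates and bars their 95% intervals. Nbl1 lies at -0.17 without the level and at -0.02 with it, and the dim Pink1 probe at -0.22 in both.

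Genes that work with MUL1 in mitochondrial dynamics and mitophagy were read next. Of 30 measured genes of that list (34 on the array), 15 read higher and 15 lower at the high Mul1 level, with a median of 0.01, and none passed the 5% threshold. At an unadjusted p under 0.05 there was 1 (3.33%, beside 3.23% of all probes), Oma1, a stress-activated protease of the inner membrane, at -0.13 (limma p = 0.0271). Among the genes of known MUL1 targets, Mfn2 lay at -0.07 (SE 0.05) and Dnm1l at -0.01 (SE 0.05). Mfn1, the second mitofusin, lay at 0.02 (SE 0.05). Fis1, a fission adaptor, lay at 0.07, Bnip3l, a mitophagy receptor, at 0.08 and Letm1, an ion exchanger of the inner membrane, at 0.11, with limma p from 0.0949 to 0.175. Between resistant and responder mice, Tollip differed by 0.10, the mitophagy receptor Fundc1 by 0.07 and Oma1 by -0.09, each at an unadjusted p under 0.05 and none past the threshold. These 3 are 10% of the list, beside 7.55% of all probes.

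Markers of other cell types were read in the same way. All 10 measured choroid plexus markers lay higher at the high Mul1 level with group in the model, as did 5969 of all 12587 probes. The median difference of the markers was 1.05, and none had an unadjusted p under 0.05. Aqp1 and Cldn2 were detected on 19 arrays, and as markers of 1 tissue the 10 are not independent observations. Without group in the model, their mean was 8.29 ± 1.57 in high mice (5.36 to 10.18) and 8.12 ± 1.88 in low mice (SD, 5.86 to 10.59). Beside 3.23% of all probes, 1 of 6 endothelial markers was counted, Pecam1 at -0.30, while 2 of the 6 lay higher (Flt1 at 0.05 and Esam at 0.03). Of 6 microglial markers 1 was counted, C1qb, while Cx3cr1 lay at 0.17 and P2ry12 at 0.19. None was counted among 10 oligodendrocyte, 6 astrocyte and 5 hippocampal neuron markers. With the choroid plexus mean in the model Nbl1 lay at -0.27, the brighter Pink1 probe at 0.17 and Ece1 at 0.21, and Rnf186 at -0.22 (limma p = 0.0776). The arrays of the levels were alike in depth of signal, with 12810 ± 251 probes detected in high and 12866 ± 238 in low mice (SD), and mean array medians of 7.20 in high and 7.22 in low mice.

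Across the 30 mice, after each group's mean was subtracted, the probe most like Mul1 was that of Asns, asparagine synthetase on chromosome 6, with a Pearson r of 0.64. Zfp706 (0.62), Pibf1 (0.59), Osbpl3 (0.58), Sema3b (0.56) and Vmp1 (0.55) also ran with Mul1. Gid8 (-0.58), Pgap6 (-0.58), Nrsn2 (-0.57) and Spon1 (-0.57) ran against it, and none of these 10 is on chromosome 4. The neighbours came after them, with Nbl1 at -0.51, Rnf186 at -0.46, Ece1 at 0.43 and the brighter Pink1 probe at 0.42. The other neighbour probes above the filter lay between -0.25 (Emc1) and 0.25 (Rap1gap), with the dim Pink1 probe at -0.02. The median size of r over all probes was 0.12, and 5% of probes exceeded 0.34. These points share arrays and normalisation, and the measure of likeness is given without a test. Asns also had the smallest p between levels, at 9.95 in high and 9.78 in low mice, a difference of 0.25 with group in the model (limma p = 0.000175, adjusted p = 0.99997).

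The 20 probes with the smallest p between levels, none of which passed the threshold, included Nbl1 and 1 other gene of chromosome 4, Nrd1, at -0.12, which lies 435 protein-coding genes before Mul1. Of the 20, those of Asns, Pibf1, Zfp706, Amd2, Dhx37, Arsj and Upp1 read higher at the high level, by 0.25 to 0.58. Lower were Mzt1, Nrsn2, BC052040, Cd248, Ckmt2, Tti1, Zc3h10, Nrd1, Nacad, Fam171b, Pgap6, Spon1 and Nbl1, from -0.53 to -0.12. No neighbour's signal showed separate levels like those of Mul1. The widest gaps in the sorted values of the 12 neighbour probes were at most 0.35, for Rnf186, where the gap set a single mouse apart.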

How the data were processed

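The authors deposited, per the file headers, log2 signals with detection p-values (25697 probes, 30 arrays) and a table of processed log2 values. Quantile normalisation of the deposited log2 signals gave those processed values to within 6e-09, so no background correction was made between the 2. Whether the deposited signals had been background-corrected before export was not examined. The submitters' processing notes name lumi, without saying for which step or in which version.

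Here the deposited signals were corrected and quantile-normalised by the neqc function of limma 3.58.1 (offset 16; R 4.3.3). Probes with a detection p-value under 0.05 on at least 15 arrays were kept. Gene symbols came from the platform annotation (1 gene for 23978 probes, none for 1719), and gene order, windows and promoters from RefSeq tables of GRCm38.p6, joined by Entrez identifier. The files name no build, so the only coordinates printed are those of the promoter stretches, on the RefSeq build.

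Mice were split at the widest gap in the sorted Mul1 signal. Models (lmFit, eBayes with intensity trend) held the 4 cells of group and level, or level plus group, on all 30 arrays, with p-values adjusted by Benjamini-Hochberg over all kept probes; the Mul1 probe was left out of the level tests. The scripts were tested on simulated data. Precision is limited by the number of arrays, above all by the 2 responder mice at the high level. Replicate numbers were not treated as pairs in these models. Over the 15 pairs of equal replicate number, deviations from group means correlated between -0.32 and 0.28, above 0.1 in 8. The median was 0.11. With the replicate number as a block, the estimated correlation within pairs was 0.095 to 0.107, depending on the model. Whether mice of equal replicate number share an effect was not tested.

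Alternatives were no background correction, median scaling, the processed values, no or a stricter filter (detection p under 0.01 on every array, 9423 probes), array weights, a replicate block, a choroid plexus covariate, the sample number parts 1 to 16 and 17 to 30 as a block (a fixed term), Mul1 as a continuous term and single mice left out. Fits within those parts, and without the lowest Mul1 mouse, were added after seeing the data. No background correction and the processed values are the same values, so they are not separate checks. The members and lists were chosen with earlier results of these data known. Named were all members, non-members near Mul1 past the threshold (none), the 20 probes of smallest p, the 10 probes most correlated with Mul1, and up to 4 genes of each list by smallest p; other genes named were picked after their values were seen.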

Additional observations from a re-analysis of the deposited data

How the results depend on the processing

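No neighbour probe passed the 5% threshold in any comparison under the alternatives run for it. Of all probes between levels, 0 passed under each of them. Within responder mice 14 passed with no filter, 1 with array weights, and 0 to 1 with single mice left out. The test between the groups' level differences gave 1 with no filter and 0 to 1 with single mice left out. Between resistant and responder mice the count was 1 in the fit reported. It was 0 without a filter, after adding the choroid plexus covariate, within sample numbers 1 to 16 and without the lowest Mul1 mouse, 2 with array weights, the replicate block or the sample number block, 3 within numbers 17 to 30, and 0 to 2 with single mice left out. With the Mul1 level in that model it was 1 within numbers 17 to 30 and 0 to 1 with single mice left out. The replicate block left the 4 neighbours counted between levels as they were, Ece1, Pink1, Rnf186 and Nbl1.

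Those 4 were counted under every planned change of values, filter or weights. Rnf186 was lost with the choroid plexus covariate and without responder replicate 1. Ece1 was lost without responder replicate 6, at 0.11 (limma p = 0.148). Without resistant replicate 6, Emc1 took the place of Rnf186. Within numbers 1 to 16 the count was 2 (Pink1, Rnf186), within 17 to 30 it was 1 (Nbl1, resting on resistant replicate 9, with the spread supplied by the other mice), and without the lowest Mul1 mouse it was 5. Leaving out responder replicate 1 or 6 leaves 1 responder mouse at the high level, which is then assumed to vary like the others.

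Counts of all probes at an unadjusted p under 0.05 moved by over 1.5 times with no filter, which keeps 25697 probes in place of 12588. They were 1164 between levels (4.53%, against 3.23% as reported), 1035 within resistant (4.03%, against 2.87%) and 1409 within responder mice (5.48%, against 4.7%). The test between them gave 1378 (5.36%, against 4.85%). Between groups it was 1485 (5.78%, against 7.55%), and 1557 with the level in that model (6.06%, against 6.67%). The stricter filter, with 9423 probes, gave 226 within resistant mice (2.4%, against 2.87%). Without responder replicate 1 the counts were 941 within responder mice, 949 for the test between groups and 551 between groups with the level in the model, and without replicate 6 the first pair were 380 and 398. Within numbers 17 to 30 the last was 479.

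Signs turned for these differences, most of them small. The Ddost group difference (-0.0083) was 0.023 with median scaling, 0.0043 with the choroid plexus covariate, 0.052 within numbers 17 to 30, 0.0078 without the lowest Mul1 mouse, and -0.026 to 0.022 with single mice left out (0.014 without resistant replicate 6, 0.0029 without replicate 9). The level difference of the dim Pink1 probe (-0.0031) was 0.0023 with median scaling, 0.044 with the covariate, 0.0093 within 1 to 16, 0.085 within 17 to 30, and -0.091 to 0.050 with single mice left out (0.043 and 0.015 without responder replicates 1 and 6). The Rnf186 group difference (0.05) was -0.0079 with the covariate and -0.0031 to 0.054 with single mice left out, -0.0031 being without responder replicate 1. Within numbers 1 to 16 the group difference of Akr7a5 probe ILMN_2625991 was 0.042 (-0.09 over all mice) and that of ILMN_2908045 0.0040 (-0.04 over all mice). Within 17 to 30 that of Rap1gap was 0.011 (-0.03 over all mice) and that of Hp1bp3 -0.020 (0.01 over all mice). The cause of these changes was not tested. Comparisons within each group were not run within numbers 17 to 30, where no responder mouse was high, nor with Mul1 as a continuous term.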
